A study of Saccharomyces cerevisiae with 4 samples.

Results

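The PEX genes encode peroxins, the proteins that build and maintain peroxisomes, and INP1 and INP2 encode proteins that share peroxisomes between mother cell and bud. Members were taken by name: every probe set of budding yeast (Saccharomyces cerevisiae) whose symbol in the platform annotation was PEX followed by a number, INP1 or INP2. This gave 27 genes of the 5449 measured, each read by 1 probe set. Cultures of W1588-4c, which the labels call a wild type strain, were grown in YPD, a rich glucose medium, to log phase (OD600 0.6 to 0.8). They received 100 µM ebselen, an organoselenium compound that binds thiol groups, for 3 h, or DMSO, its solvent, and the sample records give an exposure time for ebselen only. Each group had 2 Affymetrix Yeast Genome 2.0 arrays, which the labels call biological replicates, and all 4 shared strain and medium. The comparison asked which peroxin genes differ in transcript level during ebselen treatment.

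Peroxisomes import folded enzymes from the cytosol. Receptors bind a short targeting signal on the cargo, dock at the membrane, release the cargo inside, are tagged with ubiquitin by a ring of membrane ligases and are pulled back out by an ATPase. Membrane proteins enter by a separate route, and other peroxins set how large the organelles are and how many there are. In budding yeast, peroxisomes carry fatty acid oxidation; they are few in glucose and multiply on oleate, a fatty acid.

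Every value is log2 expression after subtraction of the median that the probe set had over the 4 arrays, so neither absolute levels nor the identity of the cells can be read from it, and genes cannot be ranked by level. The middle pair of the 4 values of a probe set therefore lies at equal distance on either side of 0. A change is the mean of the ebselen arrays minus the mean of the DMSO arrays, with the moderated standard error (SE) and interval of limma, and it is to be read against the change of a typical gene. "Rose" and "fell" are used for a Benjamini-Hochberg adjusted p under 0.05 over all 5449 genes. Over these genes, 1796 rose (33%) and 2113 fell (38.8%), together 71.7%. Among the array's control probe sets, 8 of 8 yeast transcripts probed at both ends had a lower 5′ against 3′ signal with ebselen (mean change −0.75 ± 0.26, SD over 8 transcripts). Scaling the arrays on their hybridization controls (transcripts added to the hybridization mix) moved the median change of all genes from −0.033 to −0.39. That scaling shifts all genes of an array by the same value, so the error of the shift is shared by all genes. The fit treats genes as separate, so calls and adjusted p on that scaling are descriptions only.

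Of the 27 peroxin and inheritance genes, 7 rose and 13 fell, and 7 did not pass. These 20 calls stand against 71.7% called among all genes. On the hybridization controls they became 1 rise and 20 falls, so that rises were 35% of calls as deposited and 4.76% there. Over all genes that scaling gave 11.8% higher and 58.3% lower (70.1% together), and the share of rises among calls went from 45.9% to 16.9%. The methods' t-test called 4 rises and 7 falls, against 22.6% and 25.9% of all genes (48.5% together). The calls it did not make were those of PEX22, PEX7, PEX15, PEX2, PEX4, PEX28, PEX5, PEX31 and PEX27 (adjusted p from 0.0537 to 0.193). The groups' arrays did not overlap for 26 of the 27 genes, against 86.6% of all genes. The median change was −0.13, against −0.033 for all genes, and the members' quartiles were −0.45 and 0.18, against −0.43 and 0.33. A change of at least 2-fold was reached by 1 member, against 11.7% of all genes. Of the 13 falls, 11 were genes of matrix protein import or membrane protein insertion and 2 (PEX30 and PEX28) genes of organelle size and number. Falls were 3 of 4 receptor genes (co-receptors included), 2 of 4 docking genes (PEX8 included) and 1 of 2 ligase genes. They were also 3 of 4 recycling genes, 2 of 2 insertion genes and 2 of 5 size and number genes. Of the 7 rises, 4 were genes of size, number or proliferation, 2 of inheritance and 1 (PEX5) of import. Rises were 2 of 5 size and number genes, 2 of 4 proliferation genes, 2 of 2 inheritance genes and 1 of 4 receptor genes. Over all genes 38.8% fell and 33% rose, and the differences between roles were not tested.

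**Figure D1:**
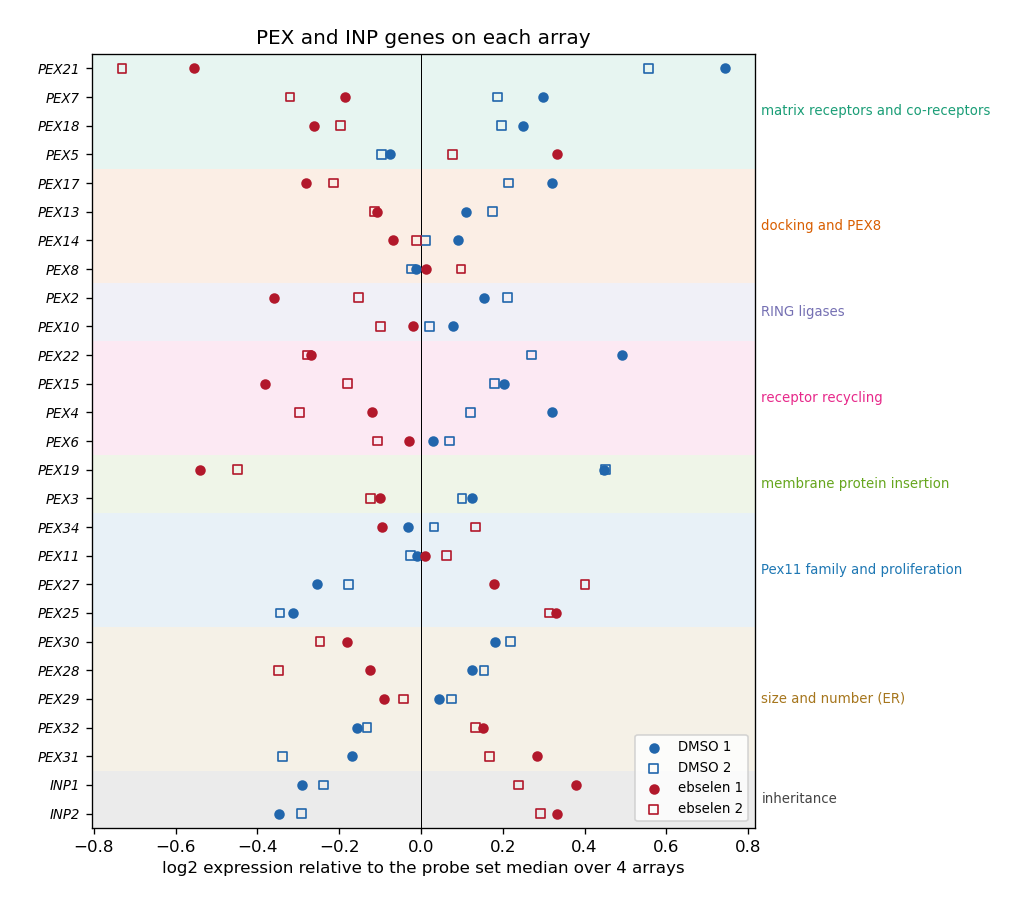
Log2 expression of the 27 genes on each of the 4 arrays, relative to each probe set's median; circles are replicate 1, squares replicate 2, blue DMSO and red ebselen, with genes grouped by role. The groups overlap for PEX34 only, and the widest separation is that of PEX21, at 0.74 and 0.56 in DMSO and −0.56 and −0.73 in ebselen.

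The largest fall was that of PEX21, a co-receptor that helps the receptor Pex7 carry enzymes bearing the second type of targeting signal (PTS2). PEX21 (YGR239C) lay at 0.74 and 0.56 in DMSO and at −0.56 and −0.73 in ebselen, a change of −1.29 ± 0.094 (SE, n = 2 per group), or 2.45-fold lower (adjusted p = 0.000205). Both ebselen arrays were more than 1 log2 unit below both DMSO arrays. PEX18 (YHR160C), the related co-receptor, was at 0.25 and 0.20 in DMSO and −0.26 and −0.20 in ebselen and fell by 0.45 (SE 0.056, adjusted p = 0.0012). PEX7 (YDR142C), the PTS2 receptor itself, was at 0.30 and 0.19 in DMSO and −0.19 and −0.32 in ebselen (−0.50 ± 0.073, adjusted p = 0.00232). These 3 genes fell, with no overlap between the groups, against 38.8% of all genes that fell. PEX7 did not pass the methods' t-test (adjusted p = 0.0564).

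PEX5 (YDR244W), the receptor for the commoner C-terminal signal (PTS1), lay on the other side. Its values were −0.077 and −0.098 in DMSO and 0.33 and 0.077 in ebselen. The groups did not overlap, but the ebselen arrays were 0.26 apart, the widest gap between replicates of any member. It rose by 0.29 ± 0.094 (1.22-fold, adjusted p = 0.0372). Without ebselen replicate 1 the change was 0.16 (adjusted p = 0.0687), without DMSO replicate 1 it was 0.30 (0.0848) and without DMSO replicate 2 it was 0.28 (0.102), so no one of these arrays could be left out with the call kept. On the hybridization controls PEX5 had the opposite sign (−0.062) and did not pass.

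In the docking complex, which receives loaded receptors at the membrane, 2 of the 3 genes fell. PEX17 (YNL214W), a peripheral docking subunit, was at 0.32 and 0.21 in DMSO and −0.28 and −0.21 in ebselen, and fell 1.43-fold (−0.52 ± 0.063, adjusted p = 0.00117). PEX13 (YLR191W), a membrane subunit that binds Pex5 and Pex7, was at 0.11 and 0.17 in DMSO and −0.11 and −0.11 in ebselen (−0.25 ± 0.053, adjusted p = 0.00874). Its call was lost without DMSO replicate 2 (−0.22, adjusted p = 0.0683). PEX14 (YGL153W), the main docking protein and a part of the import pore, was at 0.089 and 0.011 in DMSO and −0.069 and −0.011 in ebselen. Its change of −0.090 did not pass (95% interval −0.24 to 0.058), although the groups did not overlap. PEX8 (YGR077C), which lies on the inner face of the membrane and links docking to the ligases, was at −0.013 and −0.024 in DMSO and 0.013 and 0.098 in ebselen (0.073, interval −0.070 to 0.22, adjusted p = 0.286).

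The RING ligases ubiquitinate receptors so that they can leave the membrane. PEX2 (YJL210W) was at 0.15 and 0.21 in DMSO and −0.36 and −0.15 in ebselen, and fell 1.36-fold (−0.44 ± 0.083, adjusted p = 0.00581). PEX10 (YDR265W) was at 0.079 and 0.020 in DMSO and −0.020 and −0.098 in ebselen, and did not pass (−0.11, interval −0.26 to 0.040). The groups did not overlap for either gene.

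Of the 4 measured genes of receptor recycling, 3 fell and the other was lower without passing. PEX22 (YAL055W), which anchors the ubiquitin-conjugating enzyme Pex4 to the membrane, was at 0.49 and 0.27 in DMSO and −0.27 and −0.28 in ebselen. It fell 1.57-fold (−0.65 ± 0.085, adjusted p = 0.00141). PEX4 (YGR133W) was at 0.32 and 0.12 in DMSO and −0.12 and −0.30 in ebselen (−0.43 ± 0.096, adjusted p = 0.0108). PEX15 (YOL044W), the membrane anchor of the recycling ATPase, was at 0.20 and 0.18 in DMSO and −0.38 and −0.18 in ebselen (−0.47 ± 0.080, adjusted p = 0.00392). PEX6 (YNL329C), an ATPase subunit, was at 0.028 and 0.069 in DMSO and −0.028 and −0.11 in ebselen, and its change of −0.12 did not pass (interval −0.26 to 0.028). In the methods' t-test 0 of the 4 passed (adjusted p = 0.0537 for PEX22, 0.12 for PEX4 and 0.0738 for PEX15). PEX6 has the longest coding region of all members. PEX9, a second PTS1 receptor, and PEX35 were not analysed here.

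Both measured genes of membrane protein insertion fell. PEX19 (YDL065C), the soluble chaperone that delivers new membrane proteins, was at 0.45 and 0.45 in DMSO and −0.54 and −0.45 in ebselen. It fell 1.92-fold (−0.94 ± 0.057, adjusted p = 0.000121), the second largest fall, and its DMSO arrays differed by only 0.0035. PEX3 (YDR329C), the membrane docking site of Pex19, was at 0.12 and 0.10 in DMSO and −0.10 and −0.12 in ebselen. Its fall of 0.22 (SE 0.050, adjusted p = 0.0109) was the smallest among called members, and it did not pass without DMSO replicate 1 (−0.21, adjusted p = 0.0775) or without DMSO replicate 2 (−0.24, adjusted p = 0.0567).

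The Pex11 family promotes elongation and division of peroxisomes. PEX25 (YPL112C), which acts in proliferation and in making peroxisomes anew, had the largest rise. It was at −0.31 and −0.34 in DMSO and 0.33 and 0.31 in ebselen, a change of 0.65 ± 0.051, or 1.57-fold (adjusted p = 0.000253). PEX27 (YOR193W), its relative, was at −0.25 and −0.18 in DMSO and 0.18 and 0.40 in ebselen (0.50 ± 0.089, adjusted p = 0.00438). On the hybridization controls PEX25 stayed higher (0.30, adjusted p = 0.0379), while PEX27 did not pass (0.15, adjusted p = 0.303). PEX25 was the 1 member that rose on that scaling.

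PEX11 (YOL147C), the division factor that is strongly induced by oleate, stayed close to its median. It was at −0.0092 and −0.025 in DMSO and 0.0092 and 0.061 in ebselen. The change of 0.052 (interval −0.081 to 0.19, adjusted p = 0.403) did not pass, and the upper bound lies below the lower bounds of PEX25 (0.52) and PEX27 (0.28). PEX34 (YCL056C), a membrane protein that acts with this family, was at −0.032 and 0.032 in DMSO and −0.095 and 0.13 in ebselen, the only member whose groups overlapped (0.019, interval −0.21 to 0.25). PEX34 and PEX11, like PEX8, took the opposite sign on the hybridization controls and passed there as lower (PEX34 −0.34, PEX11 −0.30 and PEX8 −0.28).

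The PEX28 to PEX32 genes encode membrane proteins that regulate the size and number of peroxisomes, several of them at contacts with the endoplasmic reticulum. Here 2 genes rose and 2 fell. PEX31 (YGR004W) was at −0.17 and −0.34 in DMSO and 0.28 and 0.17 in ebselen, and rose 1.39-fold (0.48 ± 0.081, adjusted p = 0.00387). PEX32 (YBR168W) was at −0.16 and −0.13 in DMSO and 0.15 and 0.13 in ebselen, and rose 1.22-fold (0.29 ± 0.050, adjusted p = 0.0044). These rises did not pass on the hybridization controls (PEX31 0.12, PEX32 −0.069).

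PEX30 (YLR324W), which shapes the endoplasmic reticulum where new peroxisomes bud, was at 0.18 and 0.22 in DMSO and −0.18 and −0.25 in ebselen (−0.41 ± 0.055, adjusted p = 0.00156). PEX28 (YHR150W) was at 0.12 and 0.15 in DMSO and −0.12 and −0.35 in ebselen (−0.38 ± 0.086, adjusted p = 0.0117). PEX29 (YDR479C) was at 0.044 and 0.074 in DMSO and −0.090 and −0.044 in ebselen, and its change of −0.13 did not pass (interval −0.26 to 0.0072). The groups did not overlap for any of these 5 genes.

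Both inheritance genes rose. INP2 (YMR163C), the peroxisomal receptor for the myosin motor that moves peroxisomes into the bud, was at −0.35 and −0.29 in DMSO and 0.33 and 0.29 in ebselen, a 1.55-fold rise (0.63 ± 0.054, adjusted p = 0.000332). INP1 (YMR204C), which tethers peroxisomes to the mother cell cortex, was at −0.29 and −0.24 in DMSO and 0.38 and 0.24 in ebselen (1.49-fold, 0.57 ± 0.068, adjusted p = 0.00105). The proteins have opposing tasks, and both transcripts were higher. On the hybridization controls neither passed, at 0.28 for INP2 (adjusted p = 0.0515) and 0.22 for INP1 (0.130).

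**Figure D2:**
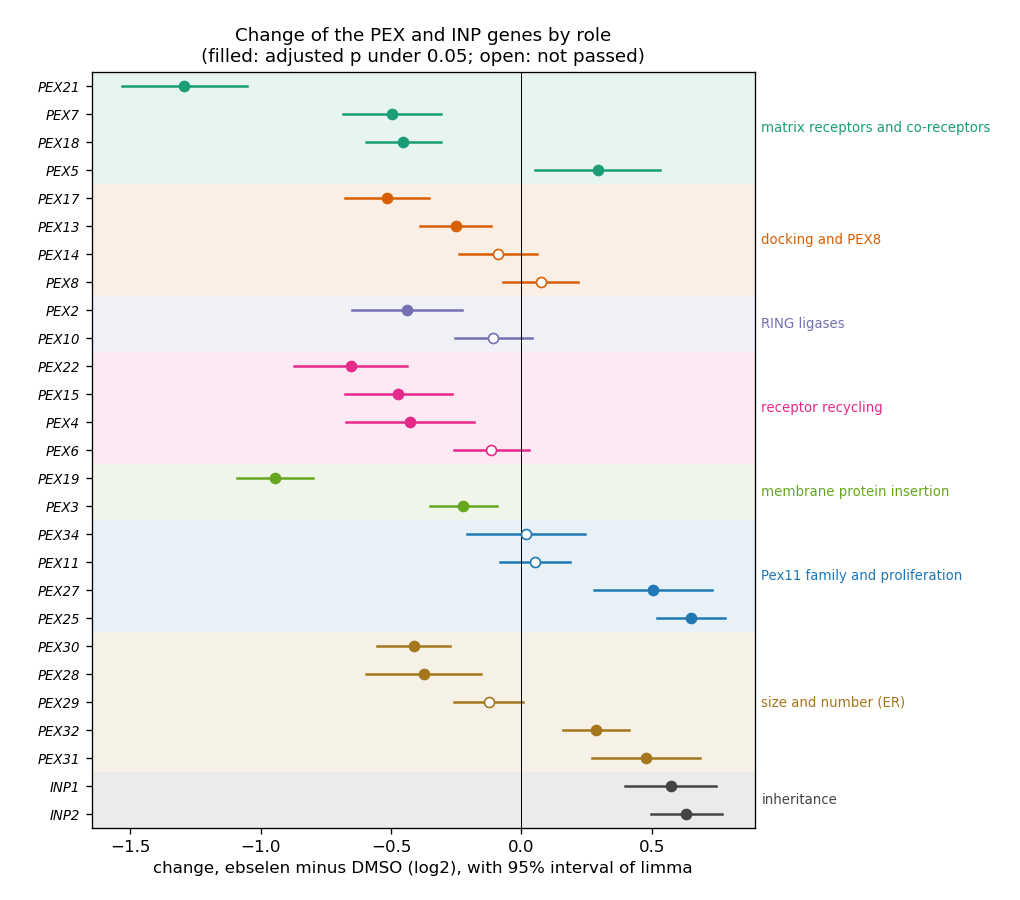
Change of each gene (ebselen minus DMSO, log2) with the 95% interval of limma, grouped by role; filled points passed the adjusted p threshold and open points did not. Changes run from −1.29 for PEX21 to 0.65 for PEX25. The inheritance genes, PEX25, PEX27, PEX31, PEX32 and PEX5 lie to the right of 0 with their whole intervals. PEX8, PEX11 and PEX34 lie to the right with intervals that hold 0.

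Family members were also set against each other in 4 pairs, chosen after their values were seen. The SE of each difference takes the genes as independent. PEX21 fell by more than PEX18, with a difference of changes of −0.84 (95% interval −1.12 to −0.56). PEX31 and PEX30, a paralogous pair, moved in opposite directions, with a difference of 0.89 (interval 0.64 to 1.14). PEX27 and PEX25 differed by −0.15, with an interval that holds 0 (−0.41 to 0.11). PEX29 and PEX28 differed by 0.25 (interval −0.0081 to 0.51). The differences on the ebselen arrays did not overlap those on the DMSO arrays for 3 of the 4 pairs, all but PEX27 and PEX25. For single genes the groups did not overlap in 86.6% of cases, and no share over other gene pairs was computed, so this count is a description only.

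Fission yeast (Schizosaccharomyces pombe) has its own probe sets on this array type. Its RNA was not in the samples, so these give the changes seen without a matching transcript. The DMSO and ebselen arrays did not overlap for 42.5% of these probe sets, against 86.6% of all budding yeast genes. The absolute change reached 0.60 at the 99th percentile of the 1747 fission yeast probe sets. Among the members, 5 exceeded that value, namely PEX21, PEX19 and PEX22 on the lower side and PEX25 and INP2 on the higher side. The share of all genes beyond it was not computed. With all genes ordered by change, PEX22 lay at percentile 15.4 and INP2 at percentile 88.1, so changes of that size were common. The 6 fission yeast probe sets for pex genes changed by −0.21 (pex6) to 0.20 (pex14). At the 95th percentile the absolute change of the fission yeast probe sets was 0.47, and 9 of the 20 called members lay under it. These were the falls of PEX18, PEX2, PEX4, PEX30, PEX28, PEX13 and PEX3 and the rises of PEX32 and PEX5. The share of all called genes under 0.47 was not computed.

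The members that fell had a shorter median coding length than those that rose, with overlapping ranges. Coding lengths, from start to stop codon, were 543 to 1740 bases (median 1029) for the 13 falls and 1131 to 2118 bases (median 1263) for the 7 rises, against a median of 1236 over all genes. The 7 members that did not pass had 435 to 3093 bases (median 1026), a median as short as that of the falls. Spearman's rho between length and change was 0.47 over the 27 members and 0.19 over all genes, as a description across genes of the same 4 arrays. After the trend of change with coding length was removed, 13 of the 13 falls and 6 of the 7 rises kept their calls, and the call for PEX5 was lost (0.19, adjusted p = 0.117). PEX6 and PEX29 then also passed as lower (−0.40 and −0.18) and PEX11 as higher (0.15, adjusted p = 0.0469). The part of the lower 5′ signal of the control transcripts in the changes of single members was not tested.

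**Figure D3:**
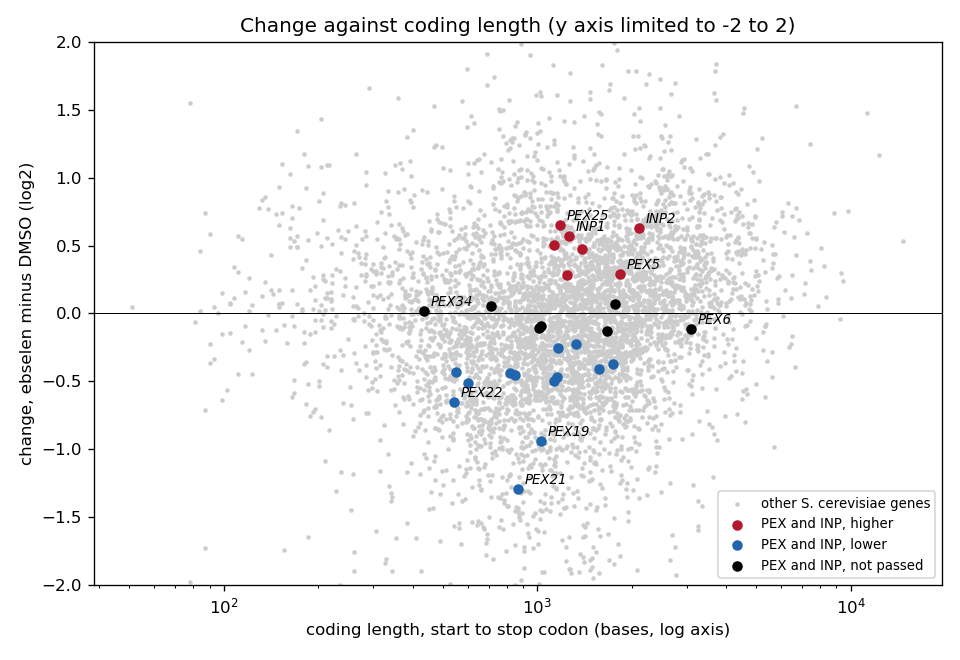
Change (ebselen minus DMSO, log2) against coding length in bases on a log axis; grey points are the other genes, of which 113 lie beyond the limits of −2 and 2, and coloured points are the 27 members. Falls reach down to 543 bases (PEX22), whereas the shortest gene that rose has 1131 bases, and the shortest member, PEX34 (435 bases), did not pass.

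Enzymes and transporters of the peroxisome, the cargo and partners of this machinery, were lower for nearly the whole list. Of 26 measured genes, 23 fell and 0 rose by limma, with a median of −0.92. This compares with 38.8% falls, 33% rises and a median of −0.033 over all genes. The groups were separate on the lower side for 24 of the 26, against 2513 of all 5449 genes. At an unadjusted p under 0.05, 0 rose as well, and the methods' t-test called 0 rises and 19 falls. A rise of 1 gene appeared without ebselen replicate 1 and with the length trend removed. MLS1 (a malate synthase) was at 1.31 and 1.40 in DMSO and −1.31 and −1.43 in ebselen (−2.72 ± 0.070, adjusted p = 1.55e-05). POT1, the thiolase of fatty acid oxidation and a PTS2 cargo of Pex7, was at 1.37 and 1.32 in DMSO and −1.37 and −1.32 in ebselen (−2.69 ± 0.054, adjusted p = 1.19e-05). GTO1, a glutathione transferase, fell by 2.09 (SE 0.066, adjusted p = 2.44e-05). Each of these falls was larger than that of any member. The members' median of −0.13 and this list's median of −0.92 are descriptions of lists chosen with results known.

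Proteins that divide, move or degrade peroxisomes went both ways, with 2 rises and 2 falls among 9 genes (median −0.11), or 1 rise and 6 falls on the hybridization controls. Over all genes 71.7% were called, and 11.8% rose and 58.3% fell on the hybridization controls. MYO2, the myosin motor to which Inp2 binds, was at −0.62 and −0.50 in DMSO and 0.50 and 0.55 in ebselen and rose 2.12-fold (1.08 ± 0.064, adjusted p = 0.000114), in the same direction as INP2. MDV1, an adaptor of the dynamin-related division protein, rose by 0.38 (SE 0.051, adjusted p = 0.00159). FIS1, the tail-anchored receptor of the division machinery on mitochondria and peroxisomes, fell by 0.69 (SE 0.051, adjusted p = 0.000217). ATG36, the receptor for autophagy of peroxisomes, fell by 0.66 (SE 0.056, adjusted p = 0.000343). These proteins also act on other cargo or organelles, except ATG36.

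Among 6 regulators of oleate and glucose-repressed genes, 2 rose and 2 fell (median −0.090), whereas 0 rose and 4 fell on the hybridization controls. Of all genes, 33% rose and 38.8% fell (71.7% together), and 11.8% rose and 58.3% fell on that scaling. ADR1, an activator of peroxisomal genes when glucose is gone, was at 0.40 and 0.32 in DMSO and −0.49 and −0.32 in ebselen (−0.76 ± 0.076, adjusted p = 0.000586). MIG1, a glucose repressor, fell by 0.41 (SE 0.061, adjusted p = 0.00236). OAF1, an oleate-activated transcription factor, rose by 0.47 (SE 0.060, adjusted p = 0.00129), and its partner PIP2, named after its value was seen, did not pass (−0.11, adjusted p = 0.287). OAF3, a repressor of oleate genes, rose by 0.16 (SE 0.052, adjusted p = 0.0423). Without DMSO replicate 1, DMSO replicate 2, ebselen replicate 1 or ebselen replicate 2, 1 regulator rose in place of 2.

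**Figure D4:**
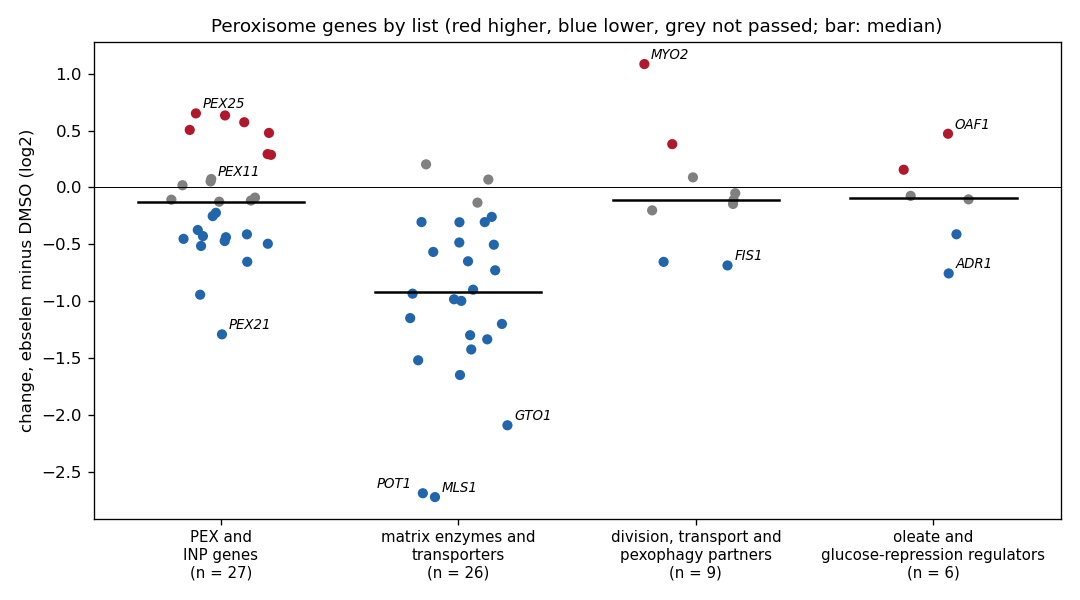
Changes (ebselen minus DMSO, log2) of the 27 PEX and INP genes and of 26 matrix enzymes and transporters, 9 partners of division, transport and pexophagy, and 6 regulators; red points rose, blue points fell, grey points did not pass and bars are medians. The matrix enzymes reach −2.72, while the PEX and INP genes lie between −1.29 and 0.65.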

How the data were processed

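RMA was used by the authors to normalize the scanner files, according to the submitters' processing notes. Per the labels' design text they analysed them in GeneSpring 7.2 with a Benjamini-Hochberg corrected t-test. The deposited values are treated as log2, since RMA output is log2 and no source used here states the base. Each probe set's median across the 4 arrays was 0 in that table (largest absolute median 5e-07), which removes absolute levels. The platform annotation gave 1 gene symbol to 7244 of 10928 probe sets, several to 1 and none to 3683. Entrez identifiers linked 5498 probe sets to 5449 genes in the RefSeq R64 table, the source of locus tags, coding lengths and gene order. The remaining 1747 annotated probe sets were taken as S. pombe. Coordinates are left out because no build is named.

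Probe sets of a gene were averaged. The groups were compared with limma 3.58.1 (R 4.3.3), lmFit and eBayes with group as the only term, two-sided, Benjamini-Hochberg adjusted over 5449 genes (2 residual and 3.13 prior degrees of freedom, prior SD 0.063). The number of arrays limits the precision. The procedure was tested on simulated data. Alternatives tried were a replicate block, leaving out each array, other normalizations (quantile, median, S. pombe probe sets, 27 hybridization control probe sets), removal of the length trend, all probe sets in one fit, 1 probe set per gene, robust eBayes, the methods' t-test and other thresholds. Members and lists were chosen with earlier results of these data known. All members are named, and from each other list at most the 3 largest called rises and falls; PIP2 and the 4 pairs were added with their values known. The plots were made in matplotlib 3.10.9.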

Additional observations from a re-analysis of the deposited data

How the results depend on the processing

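The 7 rises and 13 falls of the PEX and INP genes were kept, gene for gene, with the replicate number as a block (7 and 13), with 1 probe set per gene, with robust eBayes and with centring on the median of all genes. The labels give the arrays only a shared number, and same-numbered arrays deviated with a correlation of −0.075 over all genes and 0.36 over the 27 members. With each array left out in turn, 6 to 7 members rose and 11 to 13 fell, and their median ranged from −0.16 to −0.14. The counts became 1 and 20 on the hybridization controls, 4 and 7 with the methods' t-test, and 4 and 4 with a minimum change of 0.5. Fewer calls follow from the construction of the last, which over all 5449 genes left 936 rises and 1175 falls. The hybridization controls moved every change by the same amount (PEX21 from −1.29 to −1.65, PEX25 from 0.65 to 0.30). The source of that shift was not tested. The t-test left each change as it was and used each gene's own variance, with 2 degrees of freedom against 5.13 in limma. On the hybridization controls PEX34 (−0.34), PEX11 (−0.30), PEX8 (−0.28), PEX32 (−0.069) and PEX5 (−0.062) took the opposite sign. The members' median, −0.13 as deposited, was −0.16 with quantile normalization, −0.094 with centring on all genes, −0.19 on the S. pombe probe sets, −0.48 on the hybridization controls and −0.20 without the length trend. For matrix enzymes, 1 rise appeared with the length trend removed and 0 to 1 with an array left out. Among partners, 1 rose on the hybridization controls, and 4, 6 and 5 fell on the S. pombe probe sets, on the hybridization controls and without the length trend. Among regulators, 1 rose with the replicate block, any array left out (1 to 1), quantile normalization, the S. pombe probe sets or the length trend removed, and 0 on the hybridization controls, where 4 fell, as also without the length trend. PEX17, PEX19, PEX21 and PEX25 kept their calls in all 16 alternatives, and PEX5 lost its call or changed sign in 11. Brightness over background is not kept in centred values, so its limits on these genes are unknown.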

Other observations

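The members' nearest protein-coding neighbours in the RefSeq gene order did not overlap them in 54 of 54 cases. Of 29 neighbours called together with a called member, 17 changed in the member's direction and 12 in the opposite one. Divergently transcribed neighbours, which face the member across a shared intergenic region, did so in 5 and 4 of 9 cases. No share over the neighbours of other genes was computed, so these counts are descriptions only. The arginase gene CAR1, divergent from PEX25 (0.65), rose by 1.25, and SKG6, divergent from PEX28 (−0.38), rose by 1.23. UBC9, the SUMO-conjugating enzyme gene divergent from PEX19 (−0.94), rose by 0.48. These neighbours were chosen after their values were seen.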
